A study of Mus musculus with 7 samples.

Results

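This account covers 10 genes of blood vessel growth, read in macrophages sorted from tumors. They are the ligands Vegfa, Vegfb, Vegfc and Pgf, the receptors Flt1, Nrp1, Nrp2 and Tek, the adhesion protein Pecam1 and the inhibitor Thbs1. They were chosen by symbol through their Ensembl identifiers, and all 10 were among the 24084 genes listed in the files. The study asked what the nuclease DICER does in tumor-associated macrophages. Lewis lung carcinoma cells, from a mouse lung tumor line, were placed under the skin of mice, and F4/80+ cells of the tumors were sorted. Mice of the Dicer1-deleted group (D–/–, 3 libraries) were homozygous for LysM-Cre and for a loxP-flanked Dicer1. Control mice (D+/+, 4 libraries) were homozygous for the same Cre and had an intact Dicer1. The Cre is made from the lysozyme M locus, so the deletion reaches myeloid cells, while tumor cells and other host cells keep Dicer1. Whether libraries came from separate animals is not given in the labels, and the tests therefore measure only the spread from library to library, which may be technical.

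Tumor macrophages can promote vessel growth. VEGF-A, induced by low oxygen, acts on endothelial cells through the kinases KDR and FLT1, helped by the coreceptors neuropilin 1 and 2. PlGF, the product of Pgf, and VEGF-B bind FLT1, and VEGF-C acts mainly on lymphatic vessels. Thrombospondin 1 (Thbs1) inhibits vessel growth, TEK (TIE2) is the receptor of angiopoietins and marks a subset of macrophages near vessels, and PECAM1 (CD31) joins endothelial cells and is also carried by leukocytes and platelets. DICER cuts precursors into mature microRNAs, which pair with 3' untranslated regions of messenger RNAs mainly through their seed, bases 2 to 8.

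In Dicer1-deleted macrophages Pecam1 was about 6 times as high as in control macrophages, while the VEGF ligands, the neuropilins and Thbs1 did not pass the test. Tek was at or near 0 reads in every library, and Flt1 was below 2 CPM (read counts scaled to library size, here with TMM factors). Pecam1 passed in DESeq2 but not in edgeR's quasi-likelihood test, which was the main test and called only 4 genes in all. In bulk RNA such as this, more cells of a type and more RNA per cell cannot be told apart.

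The libraries held 43.0 to 51.2 M uniquely placed reads, both mates of a pair counted. Dicer1 itself was at 6.86 to 7.86 CPM in the Dicer1-deleted and 15.7 to 18.6 CPM in the control libraries. These counts cover the whole gene, so reads of the deleted part and of the rest cannot be told apart. The 10 macrophage markers summed to between 12570 and 20730 CPM, with overlapping groups. Log2 fold changes were positive for 7 of these markers and negative for 3, with a median of 0.13. Groups did not overlap for 2 of them, both lower, beside 5.44% lower of all tested genes. Among them Lyz2, whose locus carries the Cre, was below every control in the Dicer1-deleted libraries (57.0 ± 8.97 against 139 ± 50.6 CPM, SD, n = 3 and 4), and it fell in DESeq2 (adjusted p = 0.0144) but not in edgeR (adjusted p = 0.235). Cd14, a receptor of bacterial lipopolysaccharide, was also below every control, at 2643 to 3837 against 4255 to 4685 CPM (edgeR adjusted p = 0.764). Fibroblast and pericyte markers, 9 of them tested, had 4 positive and 5 negative values. Cspg4 alone of these fell in DESeq2 (log2 fold change -2.14, adjusted p = 0.00635), where 1.57% of all tested genes did. Dicer1-deleted replicate 2 stood apart, with a median Spearman correlation of 0.928 with the other libraries over all tested genes, against 0.951 to 0.968 for the others. It also had the strongest trend with transcript length, 0.23 above the mean of all libraries (log2) at 1 kb and -0.25 at 6 kb.

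Because the deleted gene makes microRNAs, seed matches in the longest annotated 3' UTR of each gene were listed for 24 microRNAs with 20 distinct seeds. These were chosen as expressed in myeloid or endothelial cells or as known for targets among the 10 genes, so some matches follow from the choice. Of the 10 genes, 8 held at least 1 match. Nrp1 and Pgf held none in the 549 and 776 bases searched, and other parts of these genes were not searched. The share of all tested genes with at least 1 match was not counted, so this number is a description only. Nrp2 held matches to 6 seeds, Vegfa and Flt1 to 4 each, Thbs1, Vegfb and Vegfc to 3 each, and Pecam1 and Tek to 2 each. Windows of Flt1 (transcript Flt1-203) lie at 147635883 to 147638470 of chromosome 5, while the gene, on the minus strand, runs on to 147561604. Those of Nrp2 (Nrp2-205) lie at 62796049 to 62799211 of chromosome 1, while the gene runs on to 62818695. These transcripts end before the gene does, and UTRs of longer transcripts were not searched. Pecam1 is shown first, as the gene with the largest difference, followed by Thbs1, which holds matches to the same pair of seeds, and by Vegfa. In the microRNAs the capitals mark the seed, written in RNA letters and credited to RefSeq (GRCm38.p6).
miR-18a-5p: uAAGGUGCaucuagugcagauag
miR-16-5p: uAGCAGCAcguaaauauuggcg
miR-17-5p: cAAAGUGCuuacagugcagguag
The next windows come from GENCODE release M21 transcripts (GRCm38), 5' to 3', with the bases that match the seed in capitals.
Pecam1, miR-18a match, chr11:106654521-106654543, minus strand: cttaaagcGCACCTTgatcttcc
Pecam1, miR-15a and miR-16 match, chr11:106654674-106654696, minus strand: atacacagTGCTGCTcaggtttg
Thbs1, miR-18a match, chr2:118125056-118125078, plus strand: ctggcaatGCACCTTctaaaaac
Thbs1, miR-15a and miR-16 match, chr2:118125589-118125611, plus strand: tttctgcaTGCTGCTggtgagag
Vegfa, miR-15a and miR-16 match, chr17:46018583-46018605, minus strand: cttatatcTGCTGCTaaatcgcc
Vegfa, miR-17, miR-20a and miR-93 match, chr17:46018682-46018704, minus strand: ttcgaggaGCACTTTgggtccgg
Among 12131 tested genes with a 3' UTR, 9.06% held GCACCTT, 24.5% held TGCTGCT and 14.3% held GCACTTT. A match of 7 letters is a description of the sequence and not a binding site. Any part of these matches in the fold changes of the 10 genes was not tested.

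**Figure D1:**
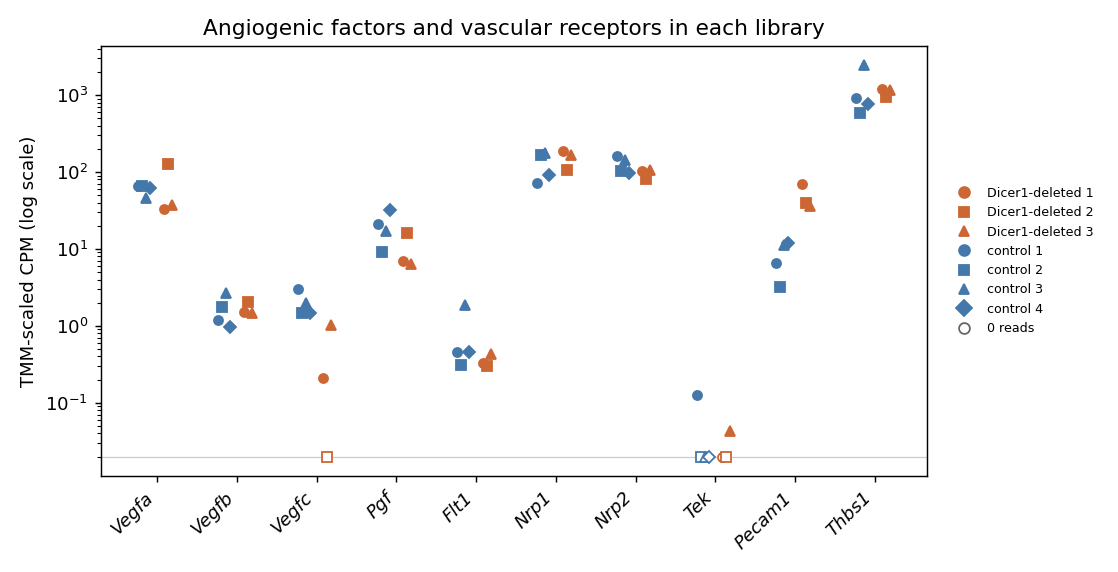
TMM-scaled CPM of the 10 genes in each library, on a log axis. Blue symbols are the 4 control and orange symbols the 3 Dicer1-deleted libraries, and open symbols on the grey line are 0 reads. The groups are apart for Pecam1 (36.3 to 69.6 against 3.23 to 11.9 CPM) and, at low levels, for Vegfc.

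Pecam1 was at 69.6, 39.8 and 36.3 CPM in Dicer1-deleted replicates 1, 2 and 3 and at 6.54, 3.23, 11.1 and 11.9 CPM in control replicates 1 to 4. Every Dicer1-deleted library was above every control library, and the lowest of the former was 3.05 times the highest of the latter. The means were 48.6 ± 18.3 and 8.20 ± 4.07 CPM (SD, n = 3 and 4). The log2 fold change, Dicer1-deleted minus control, was 2.57 ± 0.46 (SE), with a 95% interval of 1.54 to 3.59 in edgeR. The adjusted p over all 16226 tested genes was 0.111 in edgeR, where the gene ranked 39 by p, and 2.67e-05 in DESeq2. An exact two-sided permutation test, with 35 possible assignments of the libraries, gave p = 0.0571, the smallest it can give here. Between 144 and 610 reads in the control and 1568 and 3354 in the Dicer1-deleted libraries lay behind these values. Titles carry a code L4 or L5 that is not explained. Among L4 libraries Pecam1 was at 39.8 and 36.3 against 3.23 CPM, and among L5 libraries at 69.6 against 6.54 to 11.9 CPM. Pecam1 lies at chr11:106654217-106750628 of GRCm38, the build of all gene positions given here, which were taken from the annotation and not from the files.

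Pecam1 was the 1 gene of the 9 tested that DESeq2 called, where it called 2.5% of all tested genes, 0.924% higher and 1.57% lower. In edgeR 0 of the 9 passed, where 0.0247% of all genes did and 0.00616% were called higher. With no adjustment of p, 8.01% of all genes were under 0.05 in edgeR, and so was Pecam1 alone of the 9. Groups that did not overlap were found for Pecam1 (higher) and Vegfc (lower), against 9.31% of all tested genes in either direction, 3.86% higher and 5.44% lower. Of the 9 log2 fold changes 4 were positive and 5 negative, with a median of -0.09, beside a median of 0.03 for all tested genes.

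**Figure D2:**
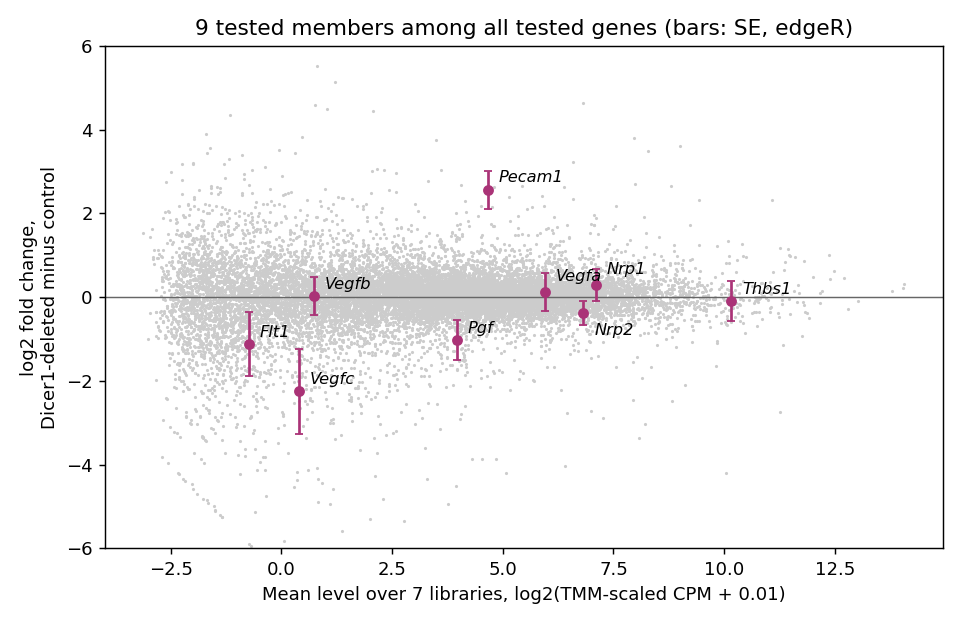
Log2 fold change (Dicer1-deleted minus control, edgeR) against the mean level of each gene, with all tested genes in grey and the 9 tested members in purple with their SE. Pecam1 stands at 2.57, while Vegfa, Vegfb, Nrp1, Nrp2 and Thbs1 lie between -0.38 and 0.29; 31 genes beyond a log2 fold change of 6 are outside the axis.

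Because PECAM1 is best known from endothelial cells and platelets, markers of these cells were read in the same libraries. The 13 analysed endothelial markers summed to between 10.3 and 19.3 CPM in the Dicer1-deleted and 4.27 and 20.2 CPM in the control libraries, so the groups overlapped. Of the 6 that were tested 5 had positive log2 fold changes, and 0 passed in either tool. Their median was 0.65, and 0.105 in edgeR without Dicer1-deleted replicate 2. Ecscr alone was negative, at -1.38. Cdh5, the cadherin of endothelial junctions, was at 0.254 to 1.49 CPM in Dicer1-deleted and 0.135 to 0.593 CPM in control libraries. The endothelial kinase Tie1 and the sialomucin Emcn did not exceed 0.168 CPM in any library, and Robo4 did not exceed 0.0415 CPM. Vwf, the highest of the list, was at 3.84 to 10.4 CPM in Dicer1-deleted and 1.495 to 7.52 CPM in control libraries. Esam was at 0.0427 to 2.49 and 0.0729 to 1.30 CPM, and Egfl7 at 0.0854 to 1.42 and 0 to 0.0912 CPM. Ptprb was at 0 to 0.498 and 0 CPM, and Plvap at 0 to 0.0854 and 0 to 0.503 CPM. The genes from Vwf to Plvap are named after their values were seen. Kdr, the main VEGF receptor of endothelium, was at 1.62 to 2.85 and 0.314 to 4.42 CPM. The summed endothelial markers were below Pecam1 in the 3 Dicer1-deleted libraries and in control replicate 3, and above it in the other 3 controls. The part of endothelial RNA in the Pecam1 value was not tested.

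Platelet markers were mixed. Gp1bb had 0 reads in all libraries, Gp9, Tubb1 and Gp6 did not exceed 0.182 CPM, and Itga2b did not exceed 0.638 CPM. Ppbp, a platelet chemokine that made up nearly all of the platelet marker sum, was at 470.1 to 919.5 CPM in Dicer1-deleted and 79.6 to 1188 CPM in control libraries. Its highest library was control replicate 2, in which Pecam1 was lowest. Pf4, another chemokine of platelet granules, was at 1685 to 4773 and 822.5 to 4073 CPM. Pf4 belongs to the list of angiogenesis inhibitors and not to the platelet markers, and it is named outside the naming rule. Treml1 was at 1.29 to 2.52 CPM in the Dicer1-deleted libraries, beside 0.168 to 1.14 CPM in the controls, without overlap. Of the 4 tested platelet markers 2 had positive values, the median was 0.33, and 0 passed in either tool.

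Markers of neutrophils, which also carry PECAM1, summed to 43.2, 62.4 and 26.6 CPM in Dicer1-deleted replicates 1 to 3 and to 21.2 to 29.4 CPM in the controls, so the groups overlapped. The 3 tested markers had positive values, and 0 passed in either tool. Csf3r, the receptor of granulocyte colony-stimulating factor, was at 22.8 to 32.0 CPM and 11.1 to 22.1 CPM, without overlap (edgeR adjusted p = 0.420). Ly6g, which defines mouse neutrophils, had reads only in Dicer1-deleted replicate 2, at 0.102 CPM. The part of neutrophil RNA in the Pecam1 value was not tested.

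Dendritic cell markers moved in both directions. Xcr1, a chemokine receptor of cross-presenting dendritic cells, was at 5.27, 2.64 and 5.51 CPM in Dicer1-deleted replicates 1 to 3, beside 0.474 to 1.504 CPM in the controls. It was above every control, with a log2 fold change of 2.40 (edgeR adjusted p = 0.156, DESeq2 adjusted p = 0.000756). Clec9a, a receptor of the same cells, was at 0.789 to 1.22 CPM, beside 0.0449 to 0.503 CPM, also without overlap (DESeq2 adjusted p = 0.199). Ccr7, a receptor that guides dendritic cells to lymph nodes, was below every control, at 0.427 to 1.47 CPM beside 1.62 to 25.2 CPM (DESeq2 adjusted p = 0.00999). Of the 6 tested markers 2 had positive and 4 negative values, and the list summed to 6.81 to 12.6 CPM in the Dicer1-deleted and 7.63 to 139 CPM in the control libraries. The part of dendritic cell RNA in the Pecam1 value was not tested.

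**Figure D3:**
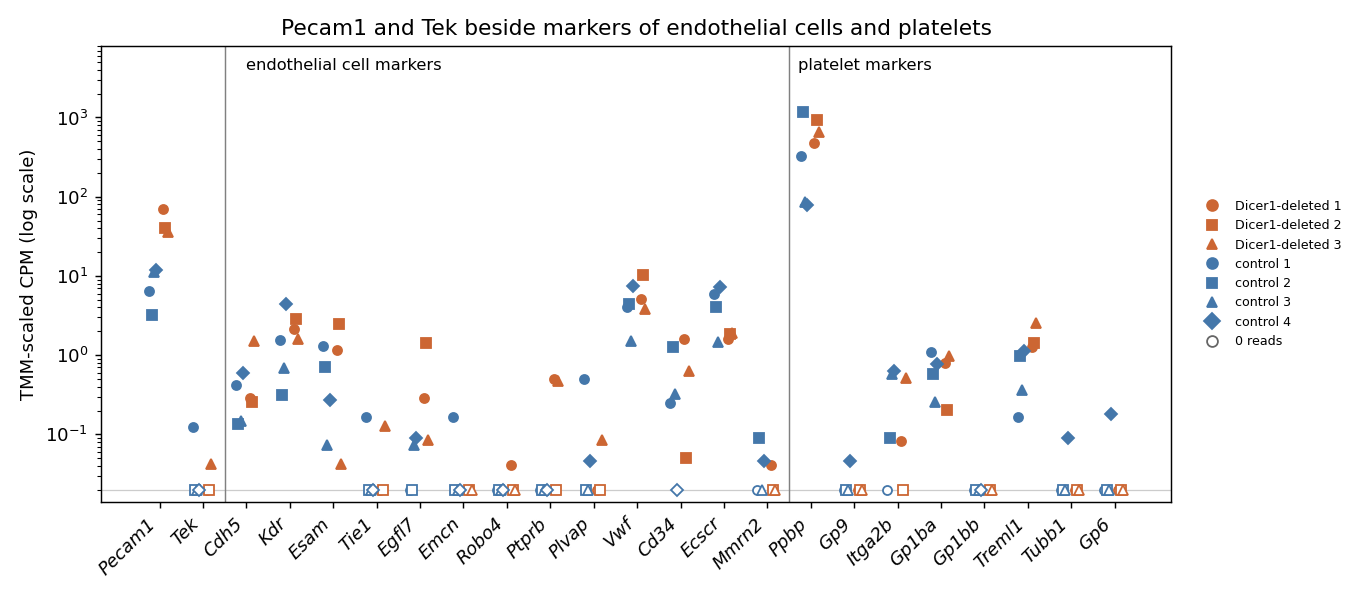
TMM-scaled CPM of Pecam1, Tek and the analysed markers of endothelial cells and platelets per library, on a log axis with the symbols of each library as in the legend. Open symbols are 0 reads. Pecam1 is at 36.3 to 69.6 CPM in the Dicer1-deleted libraries. Tie1, Emcn, Robo4 and Tek are at or near 0, and Vwf, the highest endothelial marker, reaches 10.4 CPM.

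The genes whose pattern over the 7 libraries was most like that of Pecam1, by Pearson correlation of log2 CPM among 10316 genes with a mean of at least 5 CPM, were I830077J02Rik (0.990), Cd244a (0.975) and Cd86 (0.971). Cd86, a costimulatory protein of antigen-presenting cells, was at 526.8, 460.7 and 514.5 CPM in the Dicer1-deleted and 290.5, 257, 346.1 and 390.7 CPM in the control libraries. Cd244a, a receptor of the SLAM family, was at 174.9 to 254.1 CPM in the Dicer1-deleted libraries, beside 37.6 to 105 CPM in the controls. These correlations rest on 7 libraries that share the difference between groups, and they describe likeness only.

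Among the ligands, Vegfa (chr17:46016993-46032369) had the highest mean RPKM. Its level in CPM was 33.1, 126 and 36.7 CPM in Dicer1-deleted replicates 1 to 3 and 65.95, 65.8, 46.4 and 61.4 CPM in control replicates 1 to 4. Replicate 2 of the Dicer1-deleted group was above every control library and the other two were below every control library. The means were 65.3 ± 52.6 and 59.9 ± 9.24 CPM (SD, n = 3 and 4). The difference, 0.12 ± 0.46 (log2, SE), had an adjusted p of 0.996 in edgeR. Its 95% interval ran from -0.90 to 1.15, so a change of 2-fold either way lies near its ends. Without Dicer1-deleted replicate 2 the value was -0.78 (edgeR adjusted p = 0.389), and the direction thus rested on this library. Within the L5 libraries Vegfa was at 33.1 against 46.4 to 65.95 CPM, and within L4 at 126 and 36.7 against 65.8 CPM.

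The genes most like Vegfa were Ptpn11 (Pearson correlation 0.992), Adipor2 (0.984) and Egln1 (0.981). Egln1 encodes an oxygen sensor, the prolyl hydroxylase that marks HIF-1α for destruction, and belongs to the hypoxia list used here. It was at 23.3, 52.5 and 23.5 CPM in Dicer1-deleted replicates 1 to 3, beside 34.8, 32.8, 29.5 and 37.2 CPM in the controls. Like Vegfa it was highest in Dicer1-deleted replicate 2 and lowest in the other Dicer1-deleted libraries.

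Pgf (chr12:85166635-85177790) was at 6.97, 15.9 and 6.32 CPM in Dicer1-deleted replicates 1 to 3, beside 21.4, 9.20, 17.0 and 32.1 CPM in the controls. The groups overlapped through Dicer1-deleted replicate 2 and control replicate 2. The means were 9.73 ± 5.36 and 19.9 ± 9.55 CPM (SD, n = 3 and 4). The difference, -1.03 ± 0.48 (log2, SE), had an adjusted p of 0.654 in edgeR. Without Dicer1-deleted replicate 2 the value was -1.59, with an adjusted p of 0.339 in edgeR and 0.0308 in DESeq2. Pgf lies 19.5 Mb from Dicer1 on chromosome 12. Its pattern was most like that of Sdc1 (Pearson correlation 0.943), Ripk2 (0.939) and Nop14 (0.929), and Sdc1 is the cell surface proteoglycan syndecan 1.

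Vegfc (chr8:54077606-54187096) was low, at 0.208, 0 and 1.03 CPM in the Dicer1-deleted and 3.02, 1.48, 1.97 and 1.46 CPM in the control libraries. All Dicer1-deleted libraries were below all controls. These levels came from 10, 0 and 48 reads against 64 to 144 reads, and the 0 allows up to 0.0762 CPM, by a count of 3, for counting error only. The log2 fold change was -2.25 ± 1.01 (SE, edgeR adjusted p = 0.633, DESeq2 adjusted p = 0.285). The exact two-sided permutation p was 0.0571. Without Dicer1-deleted replicate 3, DESeq2 gave -4.19 with an adjusted p of 0.00058 and edgeR -4.17 with an adjusted p of 0.279. Vegfb (chr19:6982473-6987651) was also low, at 1.45 to 2.03 CPM in the Dicer1-deleted and 0.957 to 2.66 CPM in the control libraries. The log2 fold change of Vegfb was 0.02 ± 0.46 (SE, edgeR adjusted p = 0.999).

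The neuropilins were the abundant receptors. Nrp1 (chr8:128358604-128503363) was at 187, 106.5 and 168 CPM in the Dicer1-deleted and 71.4, 166, 174 and 90.2 CPM in the control libraries, with overlapping groups. The log2 fold change was 0.29 ± 0.38 (SE, edgeR adjusted p = 0.996, 95% interval -0.55 to 1.14). Nrp2 (chr1:62703285-62818695) was at 103.5, 81.3 and 105 CPM against 162, 102, 142 and 96.8 CPM, also overlapping. Its log2 fold change was -0.38 ± 0.28 (SE, edgeR adjusted p = 0.924, 95% interval -1.0 to 0.24). The ratio of Nrp1 to Nrp2 CPM within a library was 1.81, 1.31 and 1.60 in the Dicer1-deleted and 0.441, 1.62, 1.22 and 0.932 in the control libraries. An exact two-sided permutation test of the log2 ratio gave p = 0.171.

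Nrp1 was most like B4galt6 (Pearson correlation 0.970), Mfsd14a (0.961) and Vps51 (0.955). Nrp2 was most like Ndufaf4 (0.997), Adsl (0.988) and Shmt2 (0.984). Adsl and Shmt2 are enzymes of purine synthesis and of one-carbon metabolism in mitochondria, and Ndufaf4 assists the assembly of respiratory complex I. Shmt2 was highest in control replicates 1 and 3, at 42.1 and 37.4 CPM, the libraries in which Nrp2 was also highest.

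The kinase receptors were scarce. Flt1 (chr5:147561604-147726011) was at 0.332, 0.305 and 0.427 CPM in the Dicer1-deleted and 0.461, 0.314, 1.86 and 0.456 CPM in the control libraries, or 12 to 102 reads. One control library, replicate 3, held most of the Flt1 reads of its group. The log2 fold change was -1.12 ± 0.77 (SE, edgeR adjusted p = 0.896), and -0.21 without that library. Tek (chr4:94739289-94874976) had 2 reads in Dicer1-deleted replicate 3, 6 reads in control replicate 1 and 0 reads in the other 5 libraries. A read pair counts as 2 reads, so these are 1 and 3 pairs. The floor of 3 reads corresponds to 0.0547 to 0.0762 CPM per library, and Tek did not pass the filter on low counts, so no fold change is given.

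Thbs1 (chr2:118111876-118127133) was the highest of the 10 genes, at 1198, 953 and 1176 CPM in the Dicer1-deleted and 924, 590, 2426 and 775.5 CPM in the control libraries. Control replicate 3 was above and the other 3 controls were below every Dicer1-deleted library. The means were 1109 ± 136 and 1179 ± 843 CPM (SD, n = 3 and 4). The difference, -0.09 ± 0.47 (log2, SE), had an adjusted p of 0.996 in edgeR. Without control replicate 3 it was 0.54 (edgeR adjusted p = 0.885), and without Dicer1-deleted replicate 2 it was 0.013 (edgeR adjusted p = 0.996). The sign thus turned when either of these libraries was left out. Dendritic cell markers summed to 139 CPM in control replicate 3 and to 6.81 to 50.0 CPM elsewhere. Cd209a, at 108.6 CPM, and Ccr7, at 25.2 CPM, made up most of that sum, and their part in the Thbs1 and Flt1 values was not tested. Thbs1 was most like Tut1 (Pearson correlation 0.987), Cdk5rap2 (0.979) and Zfp106 (0.977). On the opposite strand 208 of its exon bases overlap Gm29233, which is not listed in the files, and reads of the pair cannot be told apart without strand.

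Levels of different genes were ordered by the deposited RPKM (reads scaled to gene length and library size), whose gene lengths are not stated. In control libraries the means were 196 ± 150 for Thbs1, 21.0 ± 8.95 for Nrp1, 13.8 ± 1.67 for Vegfa, 13.1 ± 3.57 for Nrp2 and 12.5 ± 6.08 for Pgf (SD, n = 4). Pecam1 followed at 1.91 ± 0.992, Vegfc at 1.04 ± 0.388 and Vegfb at 1.02 ± 0.514 RPKM. Flt1 and Tek were last, at 0.07 ± 0.0668 and 0.0075 ± 0.015 RPKM. From Nrp1 to Pgf, and from Pecam1 to Vegfb, neighbouring means were closer than the larger of their SDs. In Dicer1-deleted libraries Pecam1, at 10.8 ± 4.62 RPKM (SD, n = 3), stood between Vegfa at 13.7 ± 9.45 and Nrp2 at 9.78 ± 2.29 RPKM. With CPM per kilobase of the longest annotated transcript instead, Vegfa and Nrp2 changed places in the controls, as did Vegfc and Vegfb, and Pecam1 came just below Nrp2 in the Dicer1-deleted libraries.

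**Figure D4:**
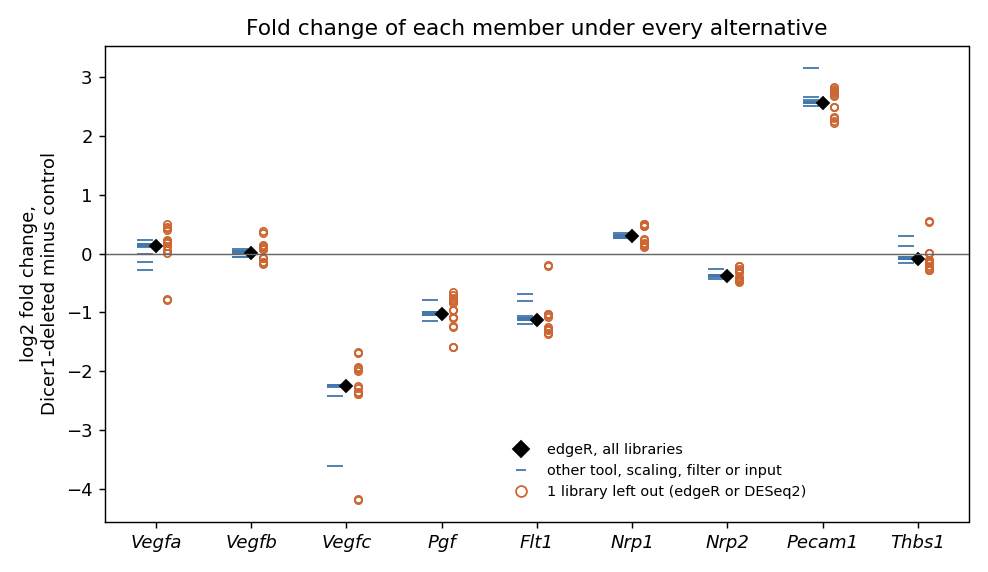
Log2 fold change (Dicer1-deleted minus control) of the 9 tested members under the alternatives, where Vegfb, Vegfc and Flt1 have no value at a filter of 10 CPM. Black diamonds are edgeR with all libraries, blue dashes other tools, scalings, filters or inputs, and orange circles fits without 1 library. Pecam1 stays between 2.21 and 3.16, while Vegfa reaches -0.78 without Dicer1-deleted replicate 2.

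Other genes of vessel growth were read from lists of ligands, receptors and inhibitors. Of 52 tested genes in these lists 0 passed in edgeR and 2 fell in DESeq2, which called 1.57% of all tested genes lower. Of the 52 log2 fold changes 21 were positive and 31 negative, and the median was -0.11. Timp2, an inhibitor of matrix proteases, was at 58.5, 49.2 and 84.1 CPM in the Dicer1-deleted and 146, 268, 132 and 158 CPM in the control libraries. Its log2 fold change was -1.46 ± 0.34 (SE, edgeR adjusted p = 0.199, DESeq2 adjusted p = 0.00366). Spry1, an inhibitor of receptor kinase signaling and the other gene that fell in DESeq2, had a log2 fold change of -2.94 and is named after its values were seen. Its adjusted p was 0.389 in edgeR and 0.038 in DESeq2. It was at 0.457, 0.508 and 0.384 CPM in the Dicer1-deleted and 4.23, 0.539, 8.42 and 0.638 CPM in the control libraries. Control replicates 2 and 4 were thus close to the Dicer1-deleted level, and the difference came mostly from control replicates 1 and 3. Timp2 and Spry1 both belong to the 13 tested inhibitors, of which 8 had negative values.

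Of the 16 tested ligands 5 had positive values, with a median of -0.11. Angpt2, an angiopoietin ligand of TEK, was at 13.1 to 16.3 CPM in the Dicer1-deleted and 18.2 to 22.4 CPM in the control libraries, with no overlap. Its log2 fold change was -0.44 ± 0.23 (SE, edgeR adjusted p = 0.742). Angpt1, the other angiopoietin of the list, did not pass the filter on low counts.

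Of the 23 tested receptors 11 had positive values, with a median of -0.05. For 6 of them the libraries of one group were all above those of the other, 3 higher and 3 lower after deletion, beside 3.86% and 5.44% of all tested genes. Those with a mean of at least 5 CPM were Met, the receptor of hepatocyte growth factor (log2 fold change 1.02), the integrin chain Itgb5 (0.54) and Cd47 (0.35), a receptor of thrombospondin 1. None of these passed, with edgeR adjusted p-values of 0.785 to 0.859. The 3 lower receptors had means below 5 CPM and are named after their values were seen. They were Plxna4 (log2 fold change -4.95), Plxna2 (-1.77) and Fgfr1 (-1.32). None of the lower ones passed in either tool, with edgeR adjusted p-values of 0.323 to 0.413. Cd36, the other thrombospondin receptor of the list, was at 67.5 to 390.0 CPM in the Dicer1-deleted and 174 to 584.7 CPM in the control libraries, and is named after its values were seen.

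The 22 genes of the hypoxia list, which hold regulators and targets of HIF, had 10 positive values and a median of -0.01, and 0 passed in either tool. Vhl and Hif1an, both negative regulators of HIF, were higher in all Dicer1-deleted than in all control libraries, with log2 fold changes of 0.70 ± 0.24 and 0.81 ± 0.25 (SE). Their adjusted p-values were 0.420 and 0.357 in edgeR and 0.095 and 0.0726 in DESeq2. Epas1 of the same list was below every control in the Dicer1-deleted libraries, with a log2 fold change of -1.81 ± 0.58 (SE). Its adjusted p was 0.370 in edgeR and 0.0904 in DESeq2. Groups thus did not overlap for 2 genes higher and 1 lower, beside 3.86% and 5.44% of all tested genes. Egln1, Egln2 and Egln3 overlapped, with log2 fold changes of -0.02, 0.62 and 0.52. Epas1, Egln2 and Egln3 are named after their values were seen. The list summed to 2256, 3173 and 2319 CPM in Dicer1-deleted replicates 1 to 3 and to 2696 to 4132 CPM in the controls, highest in control replicate 4. Ldha held a large part of the sum, at 902.5, 1555 and 924 CPM in Dicer1-deleted replicates 1 to 3, and is named after its values were seen.

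The perivascular macrophage list holds genes known from macrophages that reside along vessels and in tissues. Of its 13 tested genes 10 had negative values, the median was -0.70, and 0 passed in edgeR while 4 fell in DESeq2 (Lyve1, Folr2, Timd4 and Cd209g, the last pair named after their values were seen), where 1.57% of all tested genes did. The DESeq2 count was 1 without Dicer1-deleted replicate 2, 2 without Dicer1-deleted replicate 1 or control replicate 2 or 3, and 3 or 4 without any other library. The edgeR median ranged from -1.26 without Dicer1-deleted replicate 3 to -0.36 without Dicer1-deleted replicate 2. Folr2, a folate receptor, was at 119, 131 and 189.5 CPM in the Dicer1-deleted and 325, 953, 317 and 264 CPM in the control libraries (log2 fold change -1.66, DESeq2 adjusted p = 0.0327). Lyve1, a hyaluronan receptor, had a log2 fold change of -4.21 (DESeq2 adjusted p = 7.7e-06). Stab1, Maf and Dab2 of the same list had small positive values, 0.09, 0.18 and 0.09, and are named after their values were seen. The direction of this list was known from earlier results of these data.

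**Figure D5:**
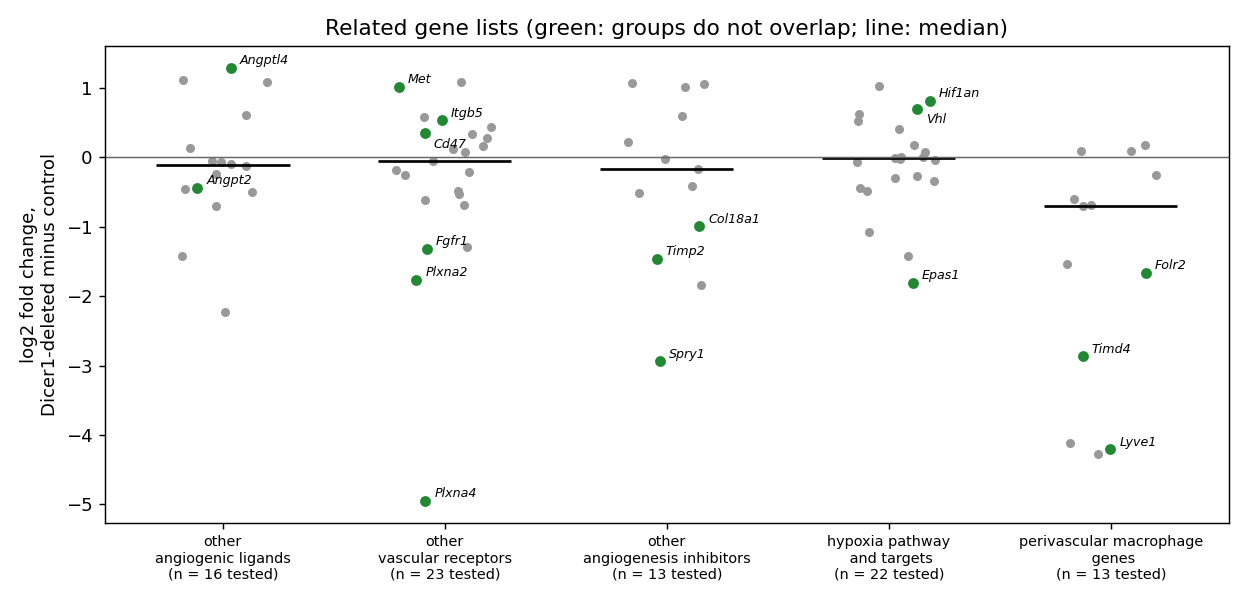
Log2 fold change (Dicer1-deleted minus control, edgeR) of tested genes in 5 related lists, with the median of each list as a line. Green points, with names, are genes whose groups did not overlap. Medians lie between -0.70 for the perivascular macrophage list and -0.01 for the hypoxia list.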

How the data were processed

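RNA of F4/80+ cells was amplified with the SMARTer ultra low kit and made into libraries with Nextera XT, which keeps no strand, and read as pairs, per the labels' protocols. The submitters' processing notes name Bowtie2; for the build, the annotation and the counter, the entry is: not given in the sources used here. Per the file headers, the authors deposited counts of uniquely placed reads per gene, expected counts that add a share of each read placed on several genes, and RPKM. All unique counts were even, so a pair counts as 2 reads; a gene not listed in a file counts as 0. The Ensembl IDs were given the symbols and GRCm38 positions of GENCODE M21 (21813 of 24084). No gene listed in the files shares exon bases with the 10 genes on the opposite strand.

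Unique counts were tested in edgeR 4.0.16 (R 4.3.3) by the quasi-likelihood F test after filterByExpr, which kept 16226 genes, and TMM scaling. P-values were adjusted by Benjamini and Hochberg over all tested genes at 0.05. SE is the log2 fold change divided by the square root of F. DESeq2 1.42.0, limma-voom 3.58.1 and the settings of the closing section were alternatives; expected counts were rounded, and DESeq2 without each library was added after seeing the data. The common dispersion, a biological coefficient of variation of 45.1%, limits precision more than depth does for genes with many reads. For genes with few reads, such as Tek and Vegfc, depth limits it too. PCR reads without molecular identifiers are not independent molecules. The workflow was tested on simulated data. Exact permutation tests (scipy 1.17.1) used log2(CPM + 0.1). Lists were described by counts and medians, without a set test. Members and lists were chosen with earlier results of these data known. Besides the members, the text names, per list, the genes called in edgeR or else up to 4 with a mean of at least 5 CPM, no overlap between groups and the largest change, and for each member of at least 5 CPM the 3 genes most alike; defining markers of other cell types are named with their range, Treml1, Ecscr, Xcr1, Clec9a and Cd209a were named after their values were seen, and other exceptions are marked. The result of 1 marker list is not reported here. Flt4, Ephb4, Thbs4, Cldn5, Sox17, Sox18, Erg and Camp of the lists were not analysed here.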

Additional observations from a re-analysis of the deposited data

Results flagged for a closer look

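For the 10 members and the 14 list genes that the naming rule gave, 24 in all, the control libraries were examined for a value far from the other 3, and about 1 in 20 such groups shows one by chance. Flt1 was at 1.86 CPM in control replicate 3, and Tek at 0.126 CPM, or 6 reads, in control replicate 1. Itgb5 was low in control replicate 3, at 33.7 CPM. Folr2 was high in control replicate 2, at 953 CPM. Thbs1 in control replicate 3, at 2426 CPM, lay just inside the limit used.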

How the results depend on the processing

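No paired analysis was possible because the labels give the groups no shared replicate numbers. The number of genes called was 4 in edgeR, 405 in DESeq2, 2 in limma-voom, 42 with no count filter, 1 with a filter of 10 CPM in 3 libraries and 0 with the L code as covariate. It ranged from 0 to 396 over the fits without 1 library, 0 to 3 in edgeR and 237 to 396 in DESeq2. Pecam1 passed in DESeq2 (2.59) and with no count filter (2.57, edgeR adjusted p = 0.0341), and in DESeq2 without each library in turn; without 1 library its log2 fold change was 2.21 to 2.83. Its edgeR adjusted p was 0.0631 with the L code and 0.073 with the transcript length correction. Vegfc and Pgf passed in DESeq2 without 1 library each, at -4.19 and -1.59, with ranges without 1 library of -4.19 to -1.67 and -1.59 to -0.66. Vegfa turned to -0.001 with no scaling factors, -0.15 in limma-voom and -0.28 with the L code, and ranged from -0.78 to 0.50 without 1 library. Vegfb turned to -0.062 with no scaling factors and -0.056 with the L code, with a range of -0.17 to 0.38. Thbs1 turned to 0.14 in limma-voom and 0.30 with the L code, with a range of -0.29 to 0.55. Nrp1 and Nrp2 kept their direction in each alternative, and so did Flt1, except that it, Vegfb and Vegfc gave no value at the filter of 10 CPM in 3 libraries. Without 1 library the edgeR list medians, from lowest to highest, were -0.31 to 0.15 for ligands, -0.24 to 0.18 for receptors, -0.33 to -0.03 for inhibitors and -0.21 to 0.12 for hypoxia genes, so that of ligands turned positive without control replicate 4 alone. No fold change is given for Tek under any setting, since its reads are at or near 0. The cause of these differences was not tested.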
